A study of Mus musculus with 16 samples.

Results

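DNA methylation is written by Dnmt1, Dnmt3a and Dnmt3b, kept through replication with the help of Uhrf1, and removed by way of Tet1, Tet2 and Tet3. These 7 genes were chosen by function. Their accessible regions are all peaks that lay within the gene body or 20 kb on either side of it, in mm10 with GENCODE M21 genes. ATAC-seq, in which a transposase inserts adapters into open DNA so that reads pile up at accessible sites, was done on thymocytes of wild type C57BL/6J mice that were 9 weeks old. The cells were sorted by surface markers into CD4-CD8- (DN), CD4+CD8+ (DP), CD4 single positive (SP4) and CD8 single positive (SP8) thymocytes, with 4 mice and 4 libraries per stage and 16 libraries in all. DN cells comprise several early steps of T cell development. No group carried a transgene, a deletion or a treatment. The deposited peak lists pool the 4 mice of a stage, so there is 1 value per region and stage, no spread between mice, and no test between stages.

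The windows of the 7 genes held 487 of the 476734 peaks in the 4 lists. Peaks that shared at least 1 bp were merged, which gave 177 of the 185978 regions of the whole series. The DN list gave 138 peaks, the DP list 100, the SP4 list 123 and the SP8 list 126. The lists themselves held 150139, 107110, 115074 and 104411 peaks, so that the SP8 list gave 0.121% of its peaks to these windows, the SP4 list 0.107%, the DP list 0.0934% and the DN list 0.0919%. Fold enrichment is the signal at a peak's summit divided by the local background, and where a stage had several peaks in a region the highest was taken. Over the 63369 regions called at all 4 stages its median lay between 8.20 at DP and 9.44 at DN, so that levels of the stages are on close scales.

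Methylation of cytosine in CpG dinucleotides is set on new sites mainly by Dnmt3a and Dnmt3b and is copied after replication by Dnmt1, which Uhrf1 brings to hemimethylated DNA. The Tet enzymes oxidise methylcytosine to hydroxymethylcytosine and further forms, from which the unmethylated base can be regained by repair or dilution. In the thymus this system is known for heritable silencing of Cd4 in the CD8 lineage and for the part of Tet2 and Tet3 in lineage choice and in natural killer T cells.

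The stage labels were checked against marker genes. Of 6 T lineage genes, Cd3e, Cd3d, Cd3g, Tcf7 and Lck had a peak over a transcription start site (TSS) at all 4 stages, and Bcl11b had none over its TSS but 37 to 49 peaks in its body. Zbtb7b, which encodes the CD4 lineage factor ThPOK, had a TSS peak at SP4 only. Kit, a receptor of early progenitors, had 12 peaks in its body at DN and 6 to 8 at the other stages. Runx3, a factor of the CD8 lineage, had 23 at SP8 and 13 to 16 elsewhere. Other markers did not follow their stage: Cd8b1 had 8 peaks at SP4 and 5 at SP8, and Cd4 had 5 at DN, 4 at DP and SP4 and 3 at SP8. In sum 4 DN genes had 27 peaks at DN and 16 to 20 elsewhere, 4 DP genes had 10 at DP and 12 to 13 elsewhere, 4 SP4 genes had 23 at SP4 and 17 to 22 elsewhere, and 4 SP8 genes had 35 at SP8 and 20 to 28 elsewhere. Among B cell genes, Cd79a had 1 peak each at SP4 and SP8, whereas Pax5 and Ebf1 brought the list to 41 peaks at DN against 14 to 22 at the other stages. Of 4 myeloid genes the count was 22 at DN and 15 to 18 elsewhere, and Lyz2 had a peak at DN only, over its TSS. Erythroid genes gave 10 at DN and 8 to 13 elsewhere. For thymic epithelial genes the count was 11 at DN and 6 to 8 elsewhere, and Krt5 and Krt8 had 1 peak each, at DN. The peak counts of these markers were not scaled to list length. The DP, SP4 and SP8 lists held 0.713, 0.766 and 0.695 times as many peaks as the DN list. A higher count at DN therefore does not by itself mark a stage or a cell type. Whether other cells in the DN sort contributed to the DN values below was not tested. No list held a peak on X or Y.

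The sequences that the results turn on are shown first. All are mm10 read from the RefSeq genome sequence. Capitals mark short words known from the binding sites of transcription factors, matched exactly on both strands. The E-box words of E proteins are CAGCTG together with the related word CACCTG. For RUNX factors the word is TGTGGTT. TCF7/LEF1 factors have the word CTTTGAA and also the word CTTTGAT. The GATA word is AGATAA, and the ETS word is CCGGAAG. E2F factors have the word TTTCCCGC, the word TTTGGCGC and also the word TTTCGCGC. The NFY word is CCAAT, the SP/KLF word is GGGCGG, the NRF1 word is GCATGCGC and the YY1 word is AAGATGGC. For CTCF the word is AGGGGGC or else the word AGGTGGC. An E-box and a CTCF word can share bases. Such a match is a description of letters and not a site of binding. The following 4 windows of 201 bp, on the plus strand and centred on the summit, come from regions that were open at DN and weaker or not called later.
Uhrf1, within the gene, DN only (chr17:56309616-56309816): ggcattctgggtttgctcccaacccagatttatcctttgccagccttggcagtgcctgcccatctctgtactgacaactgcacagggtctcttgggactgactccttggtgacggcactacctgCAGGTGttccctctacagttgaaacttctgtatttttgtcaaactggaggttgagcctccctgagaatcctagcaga
Tet3, intron, highest at DN (chr6:83418285-83418485): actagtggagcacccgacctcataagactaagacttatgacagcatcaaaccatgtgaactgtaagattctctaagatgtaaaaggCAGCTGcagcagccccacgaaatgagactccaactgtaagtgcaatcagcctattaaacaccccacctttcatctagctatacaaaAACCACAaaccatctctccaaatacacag
Dnmt1, intron, DN and DP (chr9:20948931-20949131): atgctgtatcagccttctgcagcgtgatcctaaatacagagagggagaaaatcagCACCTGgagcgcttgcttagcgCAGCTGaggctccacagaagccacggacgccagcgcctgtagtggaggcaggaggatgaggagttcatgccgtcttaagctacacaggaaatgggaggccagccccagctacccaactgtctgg
Dnmt3a, intron, DN only (chr12:3889823-3890023): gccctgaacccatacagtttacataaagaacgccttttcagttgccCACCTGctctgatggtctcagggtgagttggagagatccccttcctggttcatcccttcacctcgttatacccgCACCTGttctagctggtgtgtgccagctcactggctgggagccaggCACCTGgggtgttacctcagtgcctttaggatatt
Each of these 4 held at least 1 E-box word, the Dnmt3a window 3 and the Dnmt1 window 2.

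The next 4 windows of the same length come from Tet gene regions that were strongest in single positive cells.
Tet1, intron, all stages and highest in SP cells (chr10:62851717-62851917): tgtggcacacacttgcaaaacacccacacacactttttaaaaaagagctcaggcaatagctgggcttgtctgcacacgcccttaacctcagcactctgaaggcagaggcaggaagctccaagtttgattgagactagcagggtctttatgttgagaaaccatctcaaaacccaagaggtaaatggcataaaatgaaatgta
Tet2, intron, SP4 only (chr3:133527949-133528149): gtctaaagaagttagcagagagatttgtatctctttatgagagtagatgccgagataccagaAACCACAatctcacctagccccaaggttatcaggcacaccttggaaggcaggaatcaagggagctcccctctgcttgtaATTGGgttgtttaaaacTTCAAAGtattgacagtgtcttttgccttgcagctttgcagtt
Tet3, intron, SP4 and SP8 only (chr6:83421762-83421962): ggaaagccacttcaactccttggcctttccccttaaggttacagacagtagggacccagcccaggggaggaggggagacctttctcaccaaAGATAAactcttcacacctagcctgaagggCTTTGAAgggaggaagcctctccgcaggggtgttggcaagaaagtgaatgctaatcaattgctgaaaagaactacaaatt
Tet3, exon, highest in SP cells (chr6:83437326-83437526): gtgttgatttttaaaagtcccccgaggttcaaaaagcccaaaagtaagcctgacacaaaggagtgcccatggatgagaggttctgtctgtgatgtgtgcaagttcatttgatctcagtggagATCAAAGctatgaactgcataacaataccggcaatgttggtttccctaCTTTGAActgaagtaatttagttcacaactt
None of these 4 held an E-box word, and 3 of them held a TCF7/LEF1 word. All 8 windows were chosen after their values were seen and do not stand for their class: of the 29 single positive regions of the Tet genes, 8 held an E-box word and 3 a TCF7/LEF1 word. The Tet1 window held none of the 11 kinds of word, which says only that these letters are not in it.

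The last pair are the 150 bp upstream of 2 annotated TSSs of Uhrf1, shown because the regions over them went opposite ways from DN to the single positive stages.
Uhrf1 upstream start (chr17:56303171-56303320, plus strand): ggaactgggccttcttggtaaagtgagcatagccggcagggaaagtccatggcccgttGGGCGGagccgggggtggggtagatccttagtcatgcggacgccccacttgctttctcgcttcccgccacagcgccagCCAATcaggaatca
Uhrf1 downstream start (chr17:56304163-56304312, plus strand): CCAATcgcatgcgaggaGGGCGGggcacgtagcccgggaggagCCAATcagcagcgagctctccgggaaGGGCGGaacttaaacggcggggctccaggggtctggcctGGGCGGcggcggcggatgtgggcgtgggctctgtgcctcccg
The upstream start has 1 NFY and 1 SP/KLF word in this stretch, and the downstream start 2 and 3. The NFY order depends on the stretch. In the 201 bp around the summits the upstream region held 3 NFY and 0 SP/KLF words, and the downstream region 2 and 3.

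All 7 genes had a region called at all 4 stages over at least 1 annotated TSS. Over the genome 57.6% of 20807 protein-coding genes on the 19 autosomes had one. The 7 genes have 63 annotated TSSs, of which 28 lay in a region, and these 28 fell into 10 regions, each called at every stage. Of the 35 without one, 14 belong to Dnmt3a and 8 to Tet1.

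**Figure D1:**
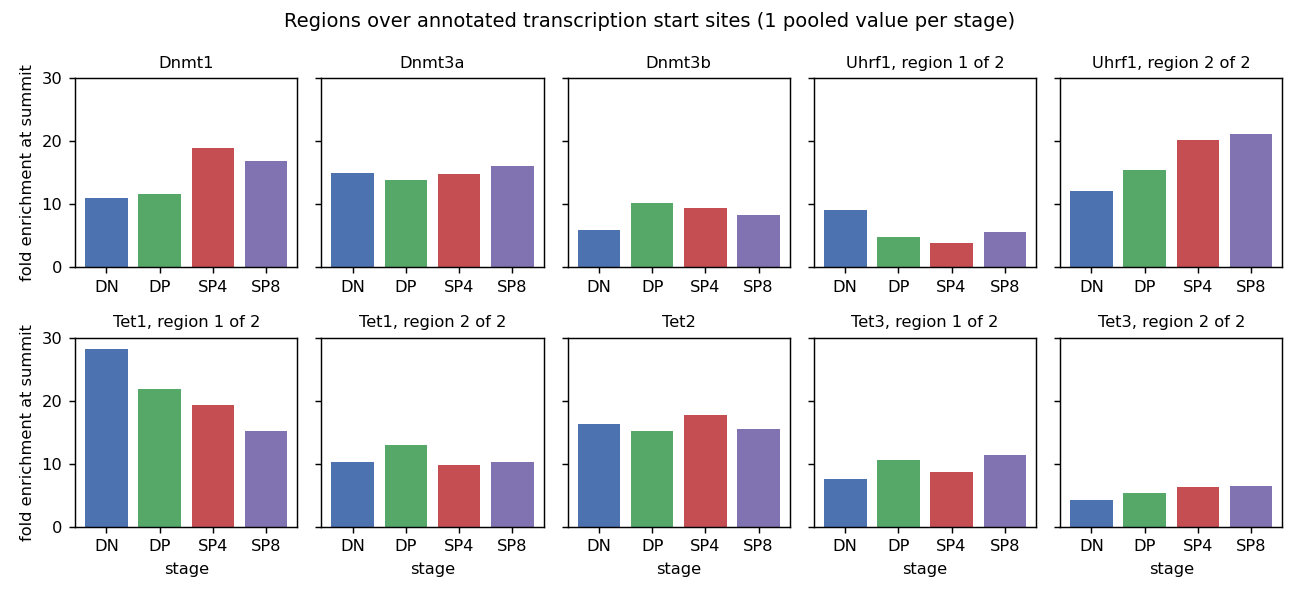
Fold enrichment at the summit (y axis, the authors' value for the pooled mice of a stage) of the 10 regions over annotated TSSs, by stage. The first region of Uhrf1 is highest at DN with 9.04 and its second region highest at SP8 with 21.1, while Dnmt3a and Tet2 stay within 13.9 to 17.7 at all stages.

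The writers' promoters differed in level and in their course. At Dnmt1, the maintenance enzyme, the region chr9:20952183-20953290 over its main start had a fold enrichment of 11.01 in DN, 11.7 in DP, 18.9 in SP4 and 16.9 in SP8 cells, so that both single positive values lay above both earlier ones. No region covered the start annotated further upstream at position 20959888. Dnmt3a, a de novo enzyme, had 14.9 in DN, 13.9 in DP, 14.8 in SP4 and 16.1 in SP8 cells over its long-isoform starts (chr12:3806028-3807058), a highest-to-lowest ratio of 1.16. Dnmt3b, the other de novo enzyme, had a start region (chr2:153648973-153650466) with 5.85 in DN, 10.2 in DP, 9.33 in SP4 and 8.23 in SP8 cells. It is shared with the start of the neighbouring gene Dnmt3bos. Its DN value was the lowest of the 4, and its log2 ratio of DP over DN, 0.80, lay at percentile 96.0 among the 63369 regions found at every stage.

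Inside Dnmt3a, the starts of the short isoform at 3891728 and 3891744 were themselves in no region but lay between a pair of regions that each came within 100 bp. The region on the upstream side (chr12:3890938-3891701) had 4.24 in DN, 7.24 in DP, 6.53 in SP4 and 5.16 in SP8 cells. On the downstream side (chr12:3891790-3892367) the values were 6.89, 9.62, 10.1 and 7.97 in the same order. Both were lowest at DN. These 2 were chosen after their values were seen.

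At Uhrf1 the 2 start regions did not move together. The upstream region (chr17:56303135-56303708) had 9.04 in DN, 4.85 in DP, 3.84 in SP4 and 5.60 in SP8 cells, and its log2 ratio of the SP mean over DN was -0.96, percentile 8.01 among such shared regions. The downstream region (chr17:56303814-56304625) had 12.03, 15.5, 20.2 and 21.1, with a ratio of 0.78 at percentile 91.3. DN was thus the highest stage of the first and the lowest of the second. Both summit windows held an E2F word, the only 2 of the 10 start regions to do so. Over the whole series 1.84% of regions over a TSS held one. The 2 windows lie at the same gene and are not independent, and E2F was among 11 kinds of word counted. Whether E2F factors act at Uhrf1 was not tested. E2F factors drive genes of the S phase.

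Among the erasers, the starts of Tet2 (chr3:133543866-133545310) had 16.3 in DN, 15.2 in DP, 17.7 in SP4 and 15.5 in SP8 cells, a highest-to-lowest ratio of 1.17. The main start of Tet3 lay in a region (chr6:83456312-83457431) with 4.29, 5.40, 6.29 and 6.47 in the same order, and its DN value was the lowest of the 10. A start inside the gene (chr6:83440817-83442084), shared with B230319C09Rik, had 7.62, 10.5, 8.66 and 11.5.

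Tet1 stood apart in where it was open. The start of its principal coding transcript at 62899118 was in no region at any stage, and neither were the starts at 62880014 and 62908996. Regions instead covered the start of Tet1-207 (chr10:62886031-62887496), with 10.3 in DN, 13.1 in DP, 9.86 in SP4 and 10.4 in SP8 cells, and the start of the noncoding transcript Tet1-202 (chr10:62865169-62865877), 33.6 kb downstream of the principal start. The latter had 28.3 in DN, 21.8 in DP, 19.4 in SP4 and 15.2 in SP8 cells, and its DN value was the highest of the 10 start regions. A stage without a peak may hold signal under the threshold of the caller.

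**Figure D2:**
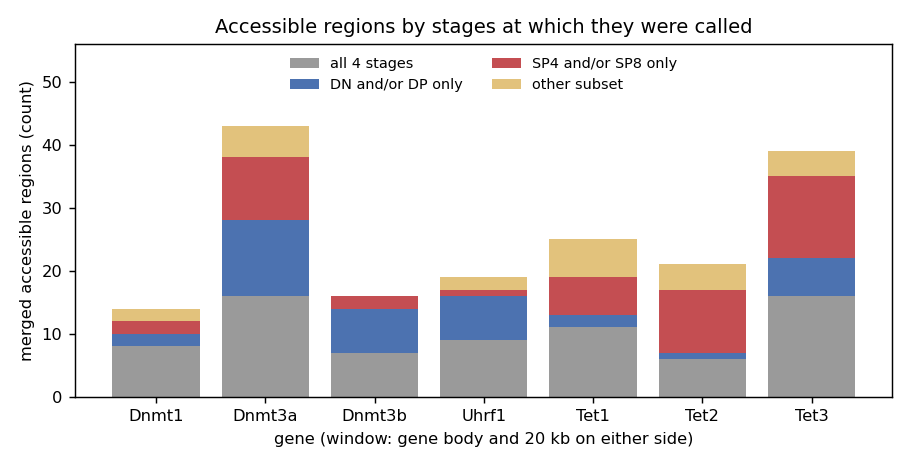
Number of merged regions (y axis) in the window of each gene, divided by calling stage. Dnmt3a has 43 and Tet3 39, and regions of SP4 and/or SP8 only make up 10 of 21 at Tet2 but 1 of 19 at Uhrf1.

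Of the 177 regions, 73 were called at all 4 stages (41.2%, against 34.1% of all regions, the background). Regions called at SP4, SP8 or both and at no earlier stage numbered 44 (24.9%, background 15.4%), and regions called only at DN, DP or both numbered 37 (20.9%, background 32.5%). The remaining 23 were called at some other set of stages. By place, 90 lay in introns of the 7 genes, 19 over their exons, 10 over their starts, 10 over starts of other genes, 25 between genes, and 23 in introns or exons of neighbours. The 44 single positive regions included 29 in the genes' own introns and none over a start. In the whole series only 376 of the 28674 single positive regions lay over a start, so that their absence here is not particular to the 7 genes. No intron share over all regions is given here. In density the windows of Uhrf1 and Dnmt3a held 31.6 and 29.0 regions per 100 kb, percentiles 92.2 and 88.6 of all genes. Tet3 had 28.5, Dnmt3b 20.4, Tet1 and Tet2 17.3 each and Dnmt1 15.1, against a median of 13.9.

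The classes were of unequal size at writers and erasers. At Tet1, Tet2 and Tet3 together 29 of 85 regions (34.1%, 95% Wilson interval 24.9 to 44.7, counting error only) were single positive only and 9 of 85 (10.6%) were DN and/or DP only. At the 3 Dnmt genes 14 of 73 (19.2%, 11.8 to 29.7) and 21 of 73 (28.8%) were, and at Uhrf1 1 of 19 and 7 of 19. DN alone accounted for 16 of 73 writer regions (21.9%, background 21.7%), 4 of 19 at Uhrf1 and 3 of 85 eraser regions, all 3 at Tet3. Regions called at both SP4 and SP8 but not at DN made up 13 of 85 eraser regions (15.3%, background 5.59%) and 2 of 73 writer regions. Among the 10304 genes with 10 or more regions, the single positive share of Tet2 (47.6%) lay at percentile 99.1, that of Tet3 (33.3%) at 93.9, Tet1 (24.0%) at 84.1, Dnmt3a (23.3%) at 82.9 and Uhrf1 (5.26%) at 20.6. Dnmt1 and Dnmt3b, with 2 such regions each, were at 56.6 and 51.4.

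The DN list is the longest, and the classes depend on that. With every list cut to its 104411 peaks of best q-value, the length of the SP8 list, the single positive share of the writers was 30.5% and that of the erasers 37.2%, a narrower gap than before, against 20.3% of all regions and 5.56% at Uhrf1. DN and/or DP regions then made up 13.6% of writer and 10.3% of eraser regions, against 23.8% of all regions and 33.3% at Uhrf1. In the class of both SP4 and SP8 without DN a wide gap was still present, with 18 of 78 eraser regions (23.1%) against 2 of 59 writer regions (3.39%) and 10.3% of all regions. Neighbouring regions of 1 gene share their locus, so that regions are not independent, and no test was made of these shares.

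The restricted region of Uhrf1 with the highest fold enrichment was called at DN alone (chr17:56309458-56309978), 6.40 kb into the gene, across a coding exon that takes up 122 of its 521 bp. Its fold enrichment of 13.9 at DN was at percentile 97.9 of the 40393 regions of the series called at DN only, and its -log10 q-value was 158. DP, SP4 and SP8 had no peak there. The next, upstream of the gene (chr17:56293222-56293834), had 6.36 in DN, 8.45 in DP and 4.16 in SP8 cells, with none at SP4. A region further upstream (chr17:56289339-56289712), named for its q-value and below other restricted regions in fold enrichment, lay at 3.37 at DN, 2.28 at SP4 and 2.83 at SP8. A pair of shared regions nearby reached higher values: the start of Kdm4b, a histone demethylase gene downstream, with 22.4 in DN, 29.0 in DP, 31.0 in SP4 and 29.6 in SP8 cells, and an intronic region of the neighbouring Plin3 (chr17:56291095-56291664) with 13.1, 14.6, 24.1 and 21.8.

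**Figure D3:**
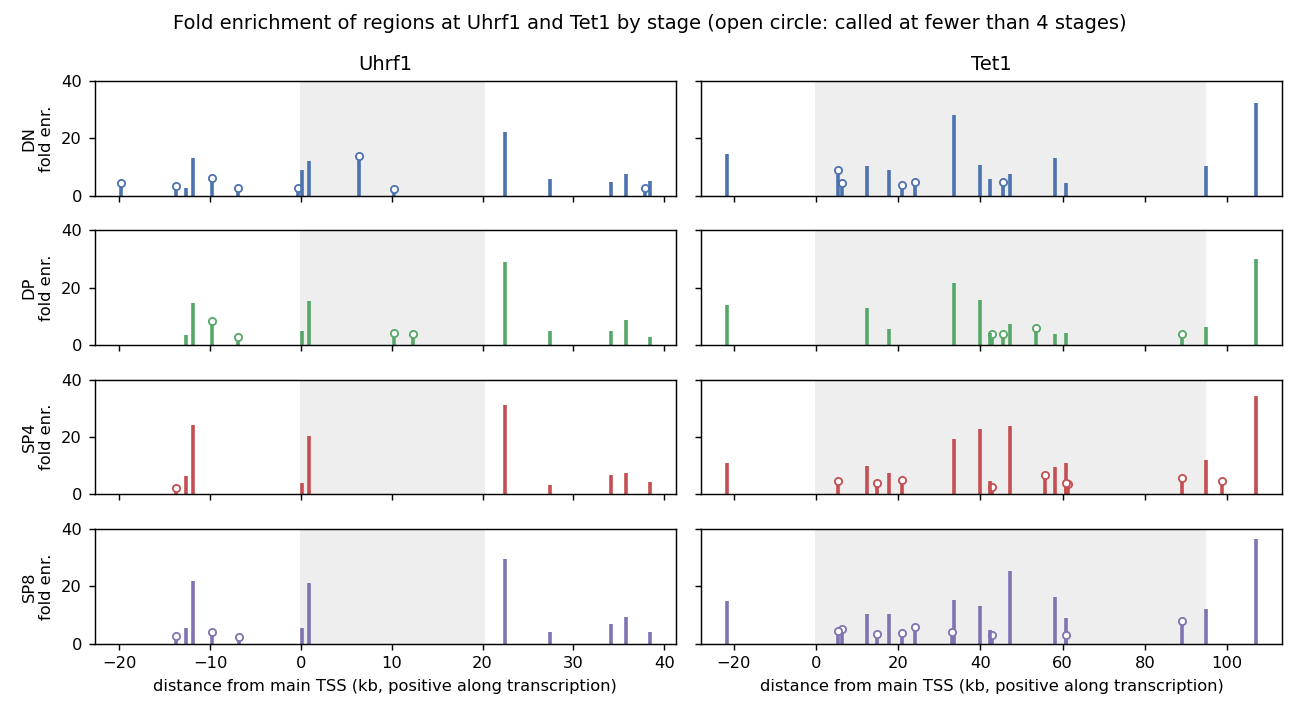
Fold enrichment (y axis) of each region of Uhrf1 and Tet1 against its distance from the main TSS (x axis, kb), with 1 row per stage. Shading runs from the main TSS to the end of the gene and open circles mark regions called at fewer than 4 stages. The DN-only region of Uhrf1 stands at 13.9 at 6.40 kb, and the Tet1 region at 47.3 kb goes from 7.54 at DN to 25.5 at SP8.

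At Dnmt1 the region of the printed intron window (chr9:20948892-20949152) had 7.71 at DN and 2.59 at DP and no peak later. An SP4 peak of 5.70 lay 6.25 kb upstream of the main start (chr9:20959155-20959294), and a further region (chr9:20943947-20944124) had 3.69 at DN, 3.79 at SP4 and 3.93 at SP8. The strongest shared regions were the start of Ppan, with 14.2 in DN, 23.1 in DP, 20.7 in SP4 and 22.5 in SP8 cells, and an intronic one at chr9:20916219-20916586 with 12.2, 19.5, 15.9 and 19.4. DN was the lowest stage in both, as it was at the start of Dnmt1 itself.

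Dnmt3a had the most regions of the 7 genes, in the longest window (148 kb). Of its 43 regions 9 were called at DN only, near the background of 21.7%. The strongest of these (chr12:3889800-3890151), close upstream of the short-isoform starts, had 5.28 at DN. A region just beyond them (chr12:3892720-3893299) had 4.56 at DN, 4.17 at DP and 4.88 at SP4 and no peak at SP8. The third by q-value (chr12:3868713-3868878) had 3.10 at DN and 2.23 at SP8. The strongest shared region of the gene lay in an intron (chr12:3855679-3856438), with 24.3 in DN, 23.5 in DP, 22.8 in SP4 and 15.1 in SP8 cells, lowest at SP8. Another (chr12:3823432-3824053) had 17.1, 13.1, 20.1 and 18.0.

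Dnmt3b had 7 regions called only at DN and/or DP among 16 (background 32.5%), with at most 6.58 among them. The leading 3 had 6.58 at DN (chr2:153696778-153697092, over an exon of a neighbouring gene), 5.85 at DP (chr2:153675919-153676108) and 4.66 at DN (chr2:153664448-153664579). Its strongest shared regions lay downstream, at chr2:153694538-153694959 with 14.6 in DN, 10.3 in DP, 20.9 in SP4 and 15.5 in SP8 cells, and at chr2:153704339-153704604 with 14.6, 7.49, 9.48 and 12.2. Both were lowest at DP.

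The Tet1 region with the highest ratio of the SP mean over DN lay in an intron 47.3 kb from the main start (chr10:62851527-62852128). It had 7.54 in DN, 7.49 in DP, 24.0 in SP4 and 25.5 in SP8 cells, and both single positive values exceeded both earlier ones more than 3-fold. The log2 ratio of the SP mean over DN was 1.71, percentile 99.3 among shared regions, and its ratio of DP over DN was -0.01. The restricted regions of Tet1 were weaker. They had 8.87 at DN, 4.74 at SP4 and 4.58 at SP8 with none at DP (chr10:62893597-62893846), 3.74 at DP, 5.69 at SP4 and 8.08 at SP8 with none at DN (chr10:62810091-62810353), and 6.83 at SP4 alone (chr10:62843289-62843482). The highest fold enrichment in the window, 30.1 to 36.6, belonged to the start of the neighbour Ccar1.

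Tet2 had 10 single positive regions among 21 (background 15.4%). Of the 21, 6 were called at SP4 alone, against 13742 of all 185978 regions. The strongest SP4-only region (chr3:133527791-133528146), in an intron 16.4 kb from the main start, had 8.52, percentile 96.6 of the 13742 regions of the series called at SP4 only. A region upstream of the gene (chr3:133556784-133556994) had 8.30 at SP4 and 7.09 at SP8 and no peak at DN or DP. In a further one (chr3:133525749-133525927) the values were 4.48 at DN, 4.33 at SP4 and 7.14 at SP8. Of the shared regions, one upstream (chr3:133563356-133563897) had 24.1 in DN, 16.9 in DP, 13.0 in SP4 and 19.4 in SP8 cells. An intronic region (chr3:133518680-133519154) set SP8 apart, with 15.5 there against 5.10 at DN, 3.74 at DP and 5.45 at SP4.

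Tet3 had 13 single positive regions among 39 (background 15.4%). Of the 39, 7 were called at both SP4 and SP8 and at no earlier stage, against 7101 of all 185978 regions. The first of its restricted regions by q-value (chr6:83418229-83418631) went the other way, with 11.5 in DN, 3.30 in DP and 1.75 in SP8 cells, with no peak at SP4. Another (chr6:83437208-83437581), over an exon without coding sequence, had 3.21 at DN, 10.0 at SP4 and 10.5 at SP8 and none at DP. A further region (chr6:83421538-83421974) had 8.79 at SP4 and 5.73 at SP8 and no peak earlier. The strongest shared region (chr6:83381444-83382177) varied little, with 19.8 in DN, 19.8 in DP, 22.2 in SP4 and 25.03 in SP8 cells. An intronic one (chr6:83428072-83428780) had 10.6, 10.1, 15.2 and 18.5.

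Among the 73 shared regions, 15 (20.5%) had a highest value at least 2-fold over the lowest, against 31.9% of all such regions, the background. The erasers held 10 of these 15 among 33 regions (30.3%), which is near the background. The writers held 3 among 31 (9.68%) and Uhrf1 2 among 9 (22.2%), both below it. DP was the lowest stage in 18 of 33 eraser regions (54.5%), 10 of 31 writer regions (32.3%) and 33.1% of all regions. SP8 was the highest stage in 14 of the 33 (42.4%), against 30% of all regions. DN was the lowest stage in 11 of 31 writer regions (35.5%), 5 of 9 at Uhrf1, 6 of 33 eraser regions (18.2%) and 27.7% of all regions.

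**Figure D4:**
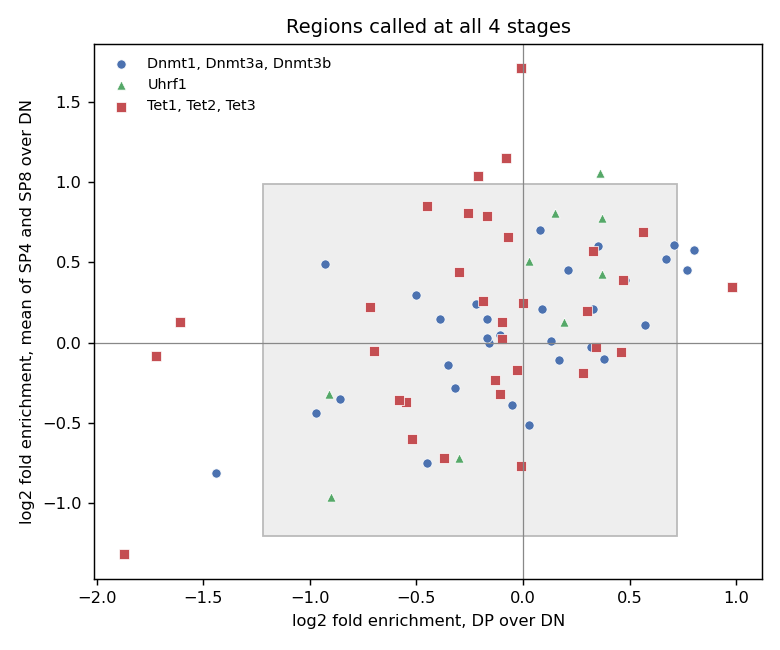
Log2 ratio of fold enrichment of DP over DN (x axis) against that of the mean of SP4 and SP8 over DN (y axis) for the 73 regions called at all 4 stages, by group of genes. The grey box spans percentiles 5 to 95 of the 63369 such regions on each axis, and the highest point is the Tet1 intron at 1.71.

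A few shared regions, chosen after their values were seen, had a DP value far below that of DN. Tet1 had 13.1 in DN, 3.98 in DP, 9.42 in SP4 and 16.2 in SP8 cells in an intron (chr10:62840665-62841104), with a log2 ratio of DP over DN of -1.72 at percentile 1.57. Tet2 had 10.7, 3.51, 12.2 and 11.2 (chr3:133526249-133526649), and the ratio was -1.61 at percentile 2.10. At Tet3 a region (chr6:83392228-83392841) had 12.8, 3.51, 4.08 and 6.45, and its ratio of -1.87 lay at percentile 1.04. Here the single positive values stayed below DN as well. Dnmt3a had 11.96, 4.40, 5.62 and 8.30 in an intron (chr12:3817136-3817369), with a ratio of -1.44 at percentile 3.03.

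Words of transcription factor sites were counted in 201 bp around the summit. Among regions over no TSS, an E-box word was present in 24 of 37 called at DN and/or DP only (64.9%, 95% Wilson interval 48.8 to 78.2), 22 of 53 called at all stages (41.5%, 29.3 to 54.9) and 11 of 44 called at SP stages only (25%, 14.6 to 39.4). The same order held over all regions of the series, with 48.8%, 37.3% and 20.9%, so that the order was not particular to the 7 genes. Writers had the word in 14 of 21 DN and/or DP regions and erasers in 6 of 9. E proteins such as E2A and HEB, which bind these words, are central to early thymocytes.

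**Figure D5:**
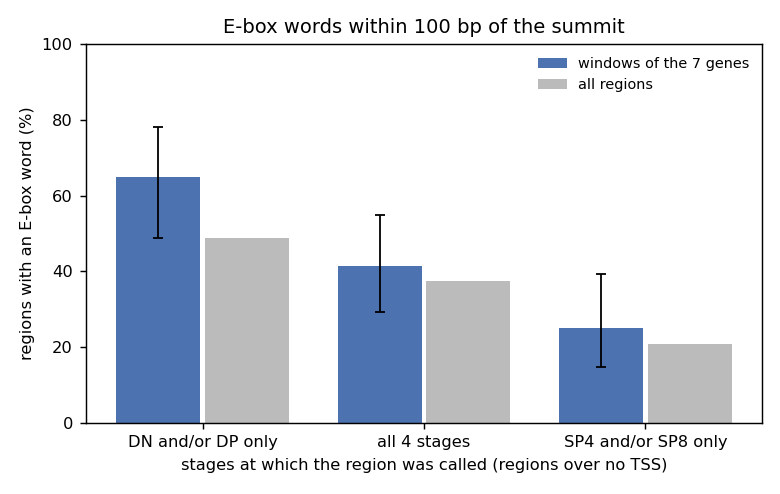
Percent of regions over no TSS with an E-box word within 100 bp of the summit (y axis), by the stages at which the region was called, for the windows of the 7 genes (blue, with 95% Wilson intervals) and for all regions (grey). The share is 64.9% in DN and/or DP regions and 25% in SP regions of the 7 genes, against 48.8% and 20.9% overall.

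GATA words were present in 7 of 44 single positive regions (15.9%, 7.93 to 29.4), and the interval covered the background of this class, 10.4%. All 7 lay at the Tet genes, which held 29 of the 44 regions. Whether GATA words favour the Tet genes was not tested. Of the 37 DN and/or DP regions, 1 held a GATA word (background 7.93%). TCF7/LEF1 words were in 4 of the 44 (9.09%, background 12.7%) and 3 of the 37 (8.11%, background 8.31%), so that neither share was above its background. CTCF words were in 16 of 53 shared regions over no TSS (30.2%, 19.5 to 43.5), against 16.5% of all such regions. SP/KLF words were in 6 of the 10 start regions and NFY words in 4, against 44.6% and 25.7% of all regions over a TSS. By base composition the 10 start regions had a median GC content of 64.2% and an observed-to-expected CpG ratio of 0.704, close to the 60.6% and 0.709 of all shared TSS regions. Shared regions away from a TSS had 51.7% and 0.172, against 50.2% and 0.23 of all such regions. The 44 single positive regions had 52.0% and 0.221, against 48.4% and 0.172 of their class away from a TSS. For the 37 DN and/or DP regions the values were 54.0% and 0.116, against 52.0% and 0.183.

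Other genes of the pathway were read from lists of readers, partners, genes linked to base excision and removal of oxidised bases, metabolic genes and CXXC proteins. A TSS region called at all 4 stages was present for 38 of 43 genes, against 57.6% of the 20807 protein-coding genes. The lists were not compared with other genes of broad expression. The 7 readers, from families that bind methylated DNA (such as Mbd1 and Zbtb4), all had one. So did the 10 genes linked to base excision and removal of oxidised bases, such as Tdg, which removes oxidised bases, and Gadd45a. The 9 genes of methyl donor and 2-oxoglutarate metabolism all had one too. Tdg had a fold enrichment of 14.2 in DN, 16.5 in DP, 14.3 in SP4 and 14.8 in SP8 cells. Idh2, which makes the cosubstrate of the Tet enzymes, had 16.5, 17.6, 23.8 and 24.9. Dnmt3l and Dppa3, genes of germ cells and early embryos, had no TSS region at any stage. Usp7 had a start peak at DP only (3.74), Cxxc4 at DN and DP (2.62 and 3.19), and Kmt2a at DP, SP4 and SP8 (2.94, 2.35 and 2.86). Accessibility of these genes and of the 7 is not a measure of their expression.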

How the data were processed

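Per the labels and the study's methods, the authors mapped reads to mm10 (BWA), discarded duplicates (Picard) and read pairs of low mapping quality, improper pairing or several locations, downsampled libraries to their median depth, combined the 4 mice per stage and ran MACS2 (versions not given in the sources used here). The deposited lists give fold enrichment, the authors' ratio over local background, and the summit position. They also hold the −log10 q-value deposited by the authors, which is at least 1.3 (a q-value of at most 0.05). Library depth is not given by the lists and was not used here. Downsampling brings the depths closer together, pooling hides differences between mice, and sites under the threshold are missing from a list.

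Peaks were merged where they shared at least 1 bp with Python 3.11.15 and numpy 2.4.6, intervals were computed with scipy 1.17.1 and figures with matplotlib 3.10.9. Windows were gene bodies and 20 kb on either side. Coordinates are mm10, counted from 1. For each gene, named regions were those over its TSSs, then the 3 called at fewer than 4 stages with the highest −log10 q-value and the 2 called at all 4 stages with the highest fold enrichment. Others are marked as chosen after their values were seen. The genes and lists were chosen with earlier results of these data known. Some marker genes are not reported here. Merging was tested on simulated data, where 2000 of 2000 sites received their true stages. Of the RefSeq promoter sequences compared with the genome reader, 313 of 313 were equal. Alternatives were a stricter q-value, lists of equal length, merging around summits, other windows, RefSeq genes, scaled fold enrichment and mean in place of highest fold enrichment.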

Additional observations from a re-analysis of the deposited data

How the results depend on the processing

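Of 44 values recomputed under other settings, 40 moved by less than the interval of their share or less than 1.5 times, and 4 moved further. With merging of only the 200 bp around summits, 33.66% of the 205 regions were called at all 4 stages, against 41.24%, and 5 of the 7 genes had a start region called at every stage. With the same number of peaks from each list, a setting that shortens the DN list most, DN-only regions made up 5.161% in place of 12.99%. For the writers, the same lists, tried after the data were seen, gave 30.5% single positive regions in place of 19.2% and 13.6% regions of DN and/or DP only in place of 28.8%. The regions with a range of 2-fold or more numbered 16 with scaled stages and 22 with mean fold enrichment, against 15. No paired analysis was possible because the deposited lists pool the mice of each stage. The lists give no depth, and a stage without a peak cannot be told apart from one with signal under the threshold.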
